A study of Mus musculus with 28 samples.

Results

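The response of mouse HC11 mammary epithelial cells to DIP was described here in 8 libraries labelled DOX and DIP, set against the 10 HC11 libraries labelled DOX alone. These 18 libraries came from a series of 28, which also held 2 further DOX and DIP libraries and 8 libraries of the 4T1 mammary cancer line with DOX, not used here. HC11 is an established, untransformed line. All 20 HC11 libraries carried DOX, so no HC11 library without it was compared. The labels spell out neither DOX nor DIP and name no construct, culture, dose or time; in HC11 work DIP usually means dexamethasone, insulin and prolactin. Total RNA was sequenced after removal of ribosomal RNA, and the HC11 libraries held between 134117581 and 222065843 gene counts. The labels do not tell whether libraries came from separate cultures, so the p-values measure the spread between these libraries only.

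The 8 libraries were chosen by a measured value. DIP libraries 8 and 10 (their numbers follow accession order and are only names) were left out. The rise of glucocorticoid targets seen in the 8 was lacking or far smaller in them. For Tsc22d3, the glucocorticoid-induced leucine zipper, the DOX libraries lay between 13.7 and 30.0 CPM (read counts scaled to the size of the library), the 8 DIP libraries between 251 and 466 CPM, and the 2 left out at 36.7 and 50.9 CPM. For this gene the 2 left out thus lay above every DOX library, though far under the 8. Fkbp5, a co-chaperone of steroid receptors, lay between 29.2 and 51.7 CPM with DOX, between 204 and 581 CPM in the 8, and at 23.7 and 24.9 CPM in the 2 left out. These values chose the libraries and are a description only. Lcn2 (lipocalin 2) and Spp1 (osteopontin) had log2 fold changes of 4.38 and 4.64 in the 8 libraries, and the proliferation marker Mki67 had one of -4.69. All 8 libraries lay beyond all 10 DOX libraries for these 5 genes. Because of this choice, no p given below comes from the 8 alone. Unless another fit is named, p is from edgeR's quasi-likelihood test of all 10 DIP against all 10 DOX libraries, with Benjamini-Hochberg adjustment. Log2 fold changes ± SE and levels are those of the 8 against the 10. A gene is said to have risen or fallen when both fits passed an adjusted p of 0.05 in the same direction. Genes that the 2 left-out libraries did not follow had more difficulty in passing.

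Mammary epithelial cells that receive glucocorticoid, insulin and prolactin leave the cell cycle and start a secretory programme. Glucocorticoid acts through a nuclear receptor that binds DNA, prolactin through JAK2 and STAT5, and insulin through the PI3 kinase pathway, which holds FOXO factors outside the nucleus. A list of 217 cell cycle and replication genes and one of 40 glucocorticoid targets were set aside when genes were chosen for naming, in favour of the other programmes and the transcription factors. These 2 lists do not hold every such gene, so genes named below may still be of either kind. The counts given for a programme still hold those of its members that are also on these 2 set-aside lists, which bear on the choice of the libraries. Without these members, beside FOXO targets and the factors treated below, counts became 10 higher and 6 lower of 28 for ion and metal handling, 13 and 3 of 26 for complement and acute phase, 10 and 1 of 18 for iron handling, 9 and 21 of 47 for chromatin, 11 and 1 of 20 for the circadian clock, 13 and 1 of 31 for fatty acid oxidation, 7 and 5 of 28 for fatty acid synthesis, 14 and 2 of 29 for the ATF4 response, 9 and 7 of 27 for EGF receptor genes, 3 and 8 of 22 for NF-kappaB and 7 and 5 of 25 for quiescence. In bulk RNA, fewer cells of a type and less RNA per cell cannot be told apart.

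Of 23829 genes tested, 10020 passed in both fits, which is 42.0% of them. Higher with DIP were 5251 genes (22.0%) and lower 4769 (20%). The counts given for lists below are to be read against these shares, and a list near them did not stand out. A change of at least 2-fold was seen in 2443 genes that rose (10.3%) and 2240 that fell (9.40%). The median log2 fold change over all genes was 0.00, and the medians given for lists below are on the same scale. In 2230 genes (9.36%) every one of the 8 DIP libraries lay above every DOX library, and in 2041 (8.57%) every one lay below. The 2 left-out libraries were also above all DOX libraries in 53.2% of the first set and also below them in 75.8% of the second. They lay within the DOX range in 22.0% and 10.8% of these sets, and beyond it on the other side in 12.7% and 3.58%.

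Outside the set-aside lists, and among genes that averaged 2 or more in log2 CPM and whose groups did not overlap, the largest rises were those of Ogn and Omd, which encode the small leucine-rich proteoglycans osteoglycin and osteomodulin. Ogn lay between 0.778 and 4.72 CPM (median 1.98) in the DOX libraries and between 107 and 577 CPM (median 316) in the 8 DIP libraries, a log2 fold change of 7.17 ± 0.53 (adjusted p = 1.34e-06). The 8 formed a pair of clusters with a wide gap, since libraries 1, 2, 4 and 6 lay at 128, 107, 107 and 125 CPM and libraries 3, 5, 7 and 9 at 577, 511, 503 and 522 CPM. Omd went from a median of 0.596 CPM to one of 71.7 CPM (range 28.5 to 151; log2 fold change 7.09 ± 0.37). Ccn2, a matricellular growth factor, reached far higher levels, from 34.9 to 111 CPM with DOX to between 2013 and 8390 CPM (median 5283) with DIP (6.60 ± 0.31, adjusted p = 4.71e-07). Mgp, the matrix Gla protein that inhibits calcification, rose from a median of 20.5 to one of 1292 CPM (6.26 ± 0.41). Cst3, the secreted cysteine protease inhibitor cystatin C, was the tightest of the set: 154 to 285 CPM with DOX and 4205 to 5900 CPM with DIP (4.51 ± 0.15, adjusted p = 3.26e-07). The groups of 8 and 10 overlapped for none of these genes, which the naming rule required.

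The other 7 of the 12 largest rises were Kcnj15, a potassium channel (5.48 ± 0.38), the chemokine Ccl9 (5.17 ± 0.26), Spp1, the acyltransferase Agpat4 (4.53 ± 0.27), the epithelial ETS factor Ehf (4.21 ± 0.35), and the serine protease gene Prss23 (4.00 ± 0.25) with Prss23os (4.02 ± 0.25). Prss23os shares its locus with Prss23 and the strand setting of the counting is not given in the sources used here, so reads of the pair cannot be told apart. In the 2 left-out libraries none of the 12 genes exceeded the DOX range: Ccn2 stood at 30.1 and 59.6 CPM there, Cst3 at 171 and 272 CPM, and Ehf at 3.15 and 3.92 CPM. Outside the rule for named genes, and chosen after their values were seen, Cxcl17, a mucosal chemokine, rose from a median of 0.135 to 31.1 CPM (7.61 ± 0.38), and Pigr, the receptor that carries immunoglobulin A into secretions such as milk, from 0.0582 to 2.69 CPM (5.99 ± 0.66).

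**Figure D1:**
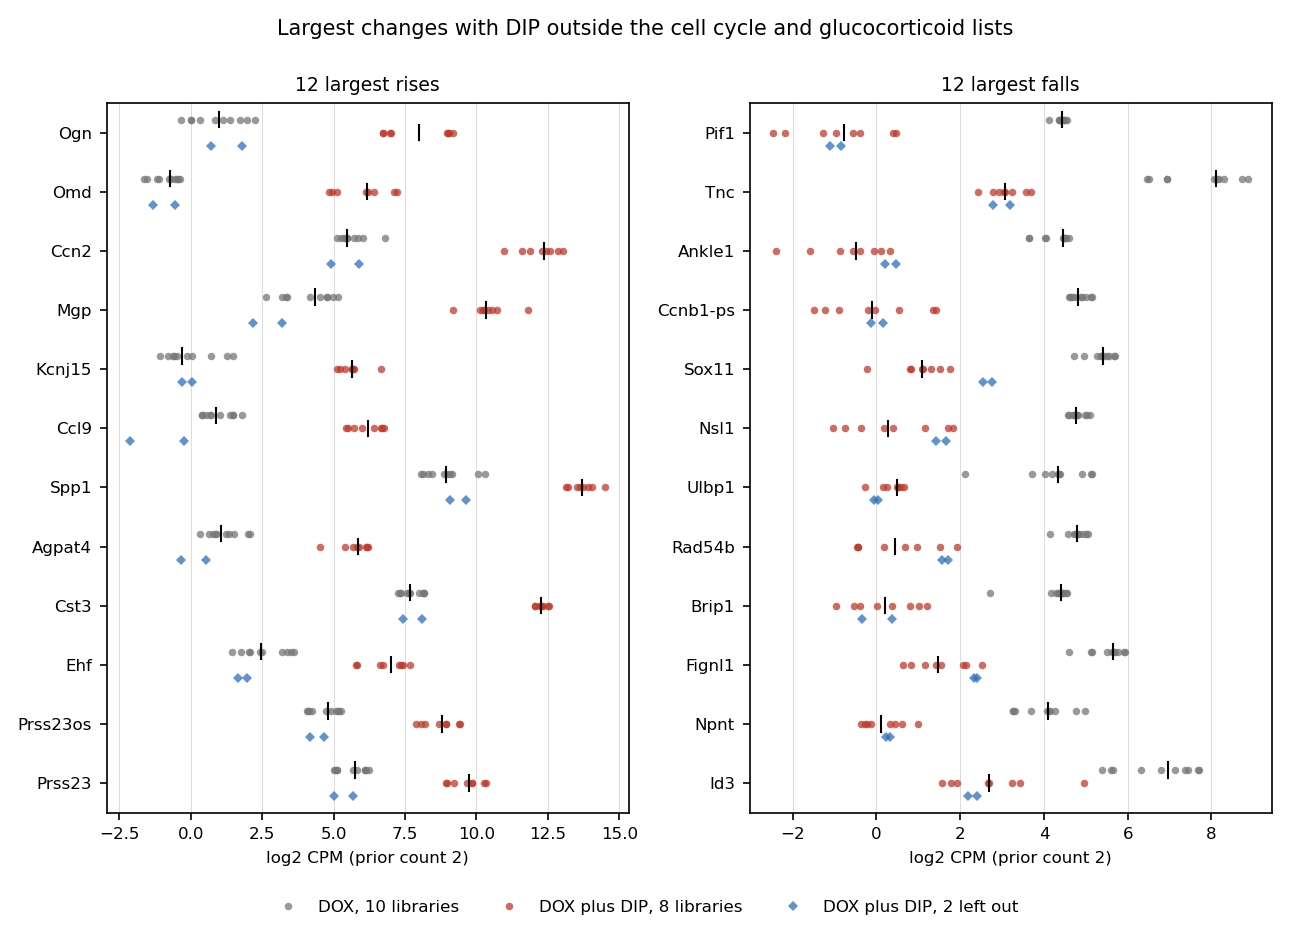
Level (log2 CPM with a prior count of 2, horizontal axis) of the 12 genes with the largest rises and the 12 with the largest falls; each point is 1 library and black ticks mark the medians of the 10 DOX and the 8 DIP libraries. For the rises the 2 left-out DIP libraries (diamonds) sit with or below the DOX libraries, while for the falls they sit with the DIP libraries.

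Of the 12 largest falls, 7 were in genes of DNA replication, repair or mitosis that the set-aside list did not hold: Pif1, Ankle1, Nsl1, Rad54b, Brip1, Fignl1 and Ccnb1-ps, a pseudogene of cyclin B1 whose reads cannot be told from its parent's. Pif1, a helicase, had the largest of them (log2 fold change -4.99 ± 0.36). Of the remaining 5, Tnc, which encodes tenascin C of the matrix, fell from 88.7 to 471 CPM (median 274) to between 5.40 and 12.9 CPM (-4.81 ± 0.37, adjusted p = 1.15e-10). Sox11, a transcription factor of progenitor cells, fell from a median of 42.4 CPM to one of 2.12 CPM (-4.28 ± 0.23). Ulbp1, a ligand of the NKG2D receptor of natural killer cells, changed by -4.05 ± 0.32, and Npnt, a basement membrane protein, by -3.88 ± 0.29. Id3, an inhibitor of bHLH factors and a target of BMP signalling, fell from a median of 125 to one of 6.40 CPM (-3.74 ± 0.50). The left-out libraries shared all 12 falls: Tnc stood at 6.87 and 9.09 CPM and Id3 at 4.58 and 5.26 CPM there.

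Among transcription factors, 376 of 450 listed and matched genes were tested; 88 rose and 86 fell, 23.4% and 22.9% of them, near the share over all genes. All 8 DIP libraries lay above all DOX libraries for 44 of the 376 factors and below for 43, against 9.36% and 8.57% of all genes. Called members of the 2 set-aside lists made up 7 of the rises and 2 of the falls. The largest rise after Ehf was Atf3, a stress-induced bZIP factor, from 5.28 to 11.8 CPM (median 5.68) with DOX to between 36.8 and 133 CPM (median 77.8) with DIP (3.40 ± 0.24, adjusted p = 3.57e-09). Nfil3, a repressor that acts in the clock and in cytokine responses, rose from a median of 10.6 to 68.3 CPM (2.62 ± 0.14, adjusted p = 4.86e-12), and Rora, a nuclear receptor that activates clock genes, from 2.77 to 18.7 CPM (2.59 ± 0.38). Ddit3 (CHOP) and Atf5, both activated by ATF4, rose by 2.49 ± 0.27 and 2.11 ± 0.18. Foxo3, which restrains growth when insulin signalling is low, went from between 23.1 and 56.1 CPM to between 87.0 and 201 CPM (2.07 ± 0.19). Srebf1, the master activator of fatty acid synthesis, rose from a median of 318 to one of 1240 CPM (1.86 ± 0.17, adjusted p = 0.00207), whereas the 2 left-out libraries both stood at 101 CPM, under every DOX library; with limma voom its adjusted p was 0.0579. Irf7, which amplifies the interferon response (1.91 ± 0.41), and the zinc finger factor Glis3 (1.79 ± 0.20) completed the 10. Of the 10, Irf7 alone had groups that overlapped. Both left-out libraries also lay above all DOX libraries for Atf3, Nfil3, Rora, Ddit3, Atf5 and Foxo3, and within the DOX range for Ehf, Irf7 and Glis3.

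Of the 10 factors with the largest falls, Sox11 and Id3 came first. After them came Etv4, an ETS factor downstream of FGF and ERK, from 14.3 to 27.9 CPM with DOX to between 0.976 and 3.73 CPM with DIP (-3.24 ± 0.23, adjusted p = 4.97e-11). Tcf7, a Wnt effector, fell from a median of 14.8 to 2.72 CPM (-2.75 ± 0.31). Id1 changed by -2.38 ± 0.29 and Nfatc2, a calcium-dependent factor, by -2.33 ± 0.27. The Hedgehog effectors Gli3 and Gli1 changed by -2.10 ± 0.11 and -1.92 ± 0.31, the Notch target Hey1 by -2.13 ± 0.46, and Snai1, a repressor of epithelial cadherin, by -2.07 ± 0.28. For Gli3 the 10 DOX libraries spanned 13.2 to 21.4 CPM and the 8 DIP libraries 3.42 to 4.68 CPM. The groups overlapped for Hey1, the exception among these 10, and the left-out libraries shared each of these falls except that of Snai1, where 1 of them lay within the DOX range.

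By family, 11 of 24 ATF, CREB and C/EBP factors rose and 2 fell (median log2 difference 0.49; 2 of the 11 are also on the set-aside lists), and of 23 AP-1 and immediate early factors 10 rose and 4 fell (median 0.45). More homeobox factors fell than rose (4 rose and 14 fell of 51, median -0.30), as for ETS factors (2 and 7 of 21, median -0.28) and SMAD, TCF and TEAD factors (1 and 6 of 17, median -0.22). The falls made up 27.5%, 33.3% and 35.3% of these 3 families, against 20% of all genes, and 33, 12 and 10 of their members did not pass. Nuclear receptors (9 and 5 of 31), STAT, IRF and Rel factors (8 and 6 of 24), bHLH and ID factors (12 and 9 of 38) and forkhead factors (5 and 7 of 21) moved both ways; 1 fall each of the last 2 families was of a set-aside gene. Among the homeobox genes, Hoxc10 and Hoxc8, which pattern the body axis, are named outside the rule, after their values were seen: Hoxc10 fell from between 0.132 and 0.385 CPM to at most 0.0244 CPM (adjusted p = 1.73e-08) and Hoxc8 from between 0.154 and 0.433 CPM to at most 0.0139 CPM. Both were at very low levels. The factors with the highest mean level in their families that did not pass included Sox9 (0.87 ± 0.15, adjusted p = 0.0656), Vdr (-0.54 ± 0.22), Foxp1 (-0.22 ± 0.11), Junb (0.03 ± 0.13) and Trp63 (0.18 ± 0.17). Of these, Sox9 passed with DESeq2 (adjusted p = 0.042), with one spread over 3 groups (0.0336) and without DOX library 5 (0.0445), Vdr with limma voom (0.0139), with DESeq2 (0.0338) and without DIP library 2 (-0.77, adjusted p = 0.00854), DIP library 5 (0.045) or DOX library 3 (0.0499), and Foxp1 without DOX library 4 (0.041). Myc did not pass either: its log2 fold change was 0.22 ± 0.22 in the 8 libraries, with levels of 68.4 to 187 CPM, while the left-out libraries stood at 952 and 1067 CPM and the test of all 10 gave 1.49 (adjusted p = 0.0142).

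**Figure D2:**
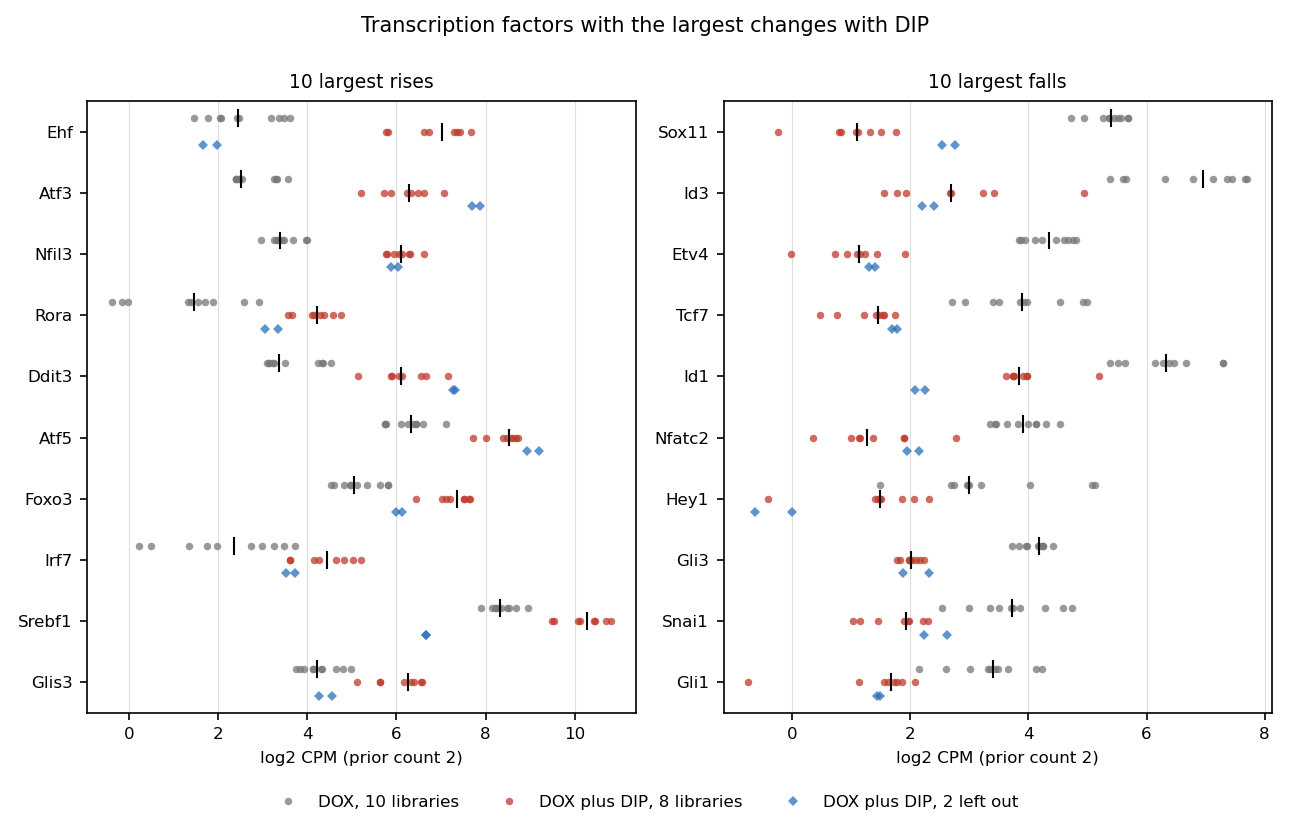
Level (log2 CPM with a prior count of 2) of the 10 transcription factors with the largest rises and the 10 with the largest falls, 1 point per library with medians as black ticks. The 8 DIP libraries and the 10 DOX libraries do not overlap except for Irf7 and Hey1, and both left-out libraries lie beyond the DOX range with the 8 for Atf3, Nfil3, Rora, Ddit3, Atf5, Foxo3 and every fall but Snai1.

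Lysosomal genes made up the list with the highest share of rises. Of 44 tested, 32 rose and 2 fell (median log2 difference 0.90). Ctsd (cathepsin D) rose from between 1020 and 1521 CPM to between 3781 and 8800 CPM (2.30 ± 0.16, adjusted p = 0.000399), Hexa, a hexosaminidase that degrades gangliosides, by 1.85 ± 0.20, and the sialidase Neu1 by 1.62 ± 0.20. Ctsa, a protective protein of that sialidase, had a log2 fold change of 0.66 ± 0.13 and an adjusted p of 0.185. Ctsd went the other way in the left-out libraries, at 326 and 422 CPM. Of 38 autophagy genes 23 rose and 0 fell (median 0.43). Map1lc3b, which coats the autophagosome, rose from 76.8 to 130 CPM to between 297 and 619 CPM (1.96 ± 0.14), its conjugation factor Atg12 by 1.94 ± 0.20, and the tethering factor Tecpr1 by 1.78 ± 0.19, while Atg3 stayed at a log2 fold change of -0.04 ± 0.06 (adjusted p = 0.279). The transcript of Tfeb, a master activator of both lists, did not pass (-0.06 ± 0.12, adjusted p = 0.629).

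Lipid genes split by pathway. In cholesterol synthesis and uptake, 15 of 24 genes fell and 2 rose (median log2 difference -0.52). Idi1, an isomerase of isoprenoid synthesis, fell from a median of 46.2 to 10.4 CPM (-1.99 ± 0.29, adjusted p = 2.23e-06) and the sterol carrier Stard4 by 1.64 ± 0.15. The factor that drives these genes, Srebf2, changed by -0.76 ± 0.18 (adjusted p = 0.000615), whereas its paralog Srebf1 rose. Sqle, with a log2 fold change of -0.21 ± 0.18, did not pass. Of 32 fatty acid oxidation and PPAR target genes 14 rose, 1 fell and 17 did not pass (median 0.46). The largest rises included the thioesterases Acot2 (2.13 ± 0.21) and Acot1 (1.18 ± 0.19), and Cpt1a, the gate of mitochondrial import (1.32 ± 0.21, adjusted p = 0.0204). With limma voom 9 rose, and Cpt1a did not pass (adjusted p = 0.18). In fatty acid and triglyceride synthesis 8 rose and 5 fell of 29, with Acacb, which makes malonyl-CoA at the mitochondrion, up by 1.57 ± 0.32 and the desaturase Fads1 down by 0.83 ± 0.18. Of 31 sphingolipid and membrane lipid genes 16 rose and 5 fell, among them Chka, the first enzyme of phosphatidylcholine synthesis (2.44 ± 0.16, adjusted p = 4.79e-10), and Degs1, which makes ceramide (1.35 ± 0.15). Adipocyte markers moved beside these lists. Fabp4 rose from a median of 0.698 to 30.3 CPM (range 5.03 to 135) and the summed level of the 9 markers went from between 0.778 and 6.56 CPM to between 5.42 and 141 CPM, but Adipoq, Lep, Plin1, Cidec, Retn, Adrb3 and Cfd were under 1 CPM in every library.

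**Figure D3:**
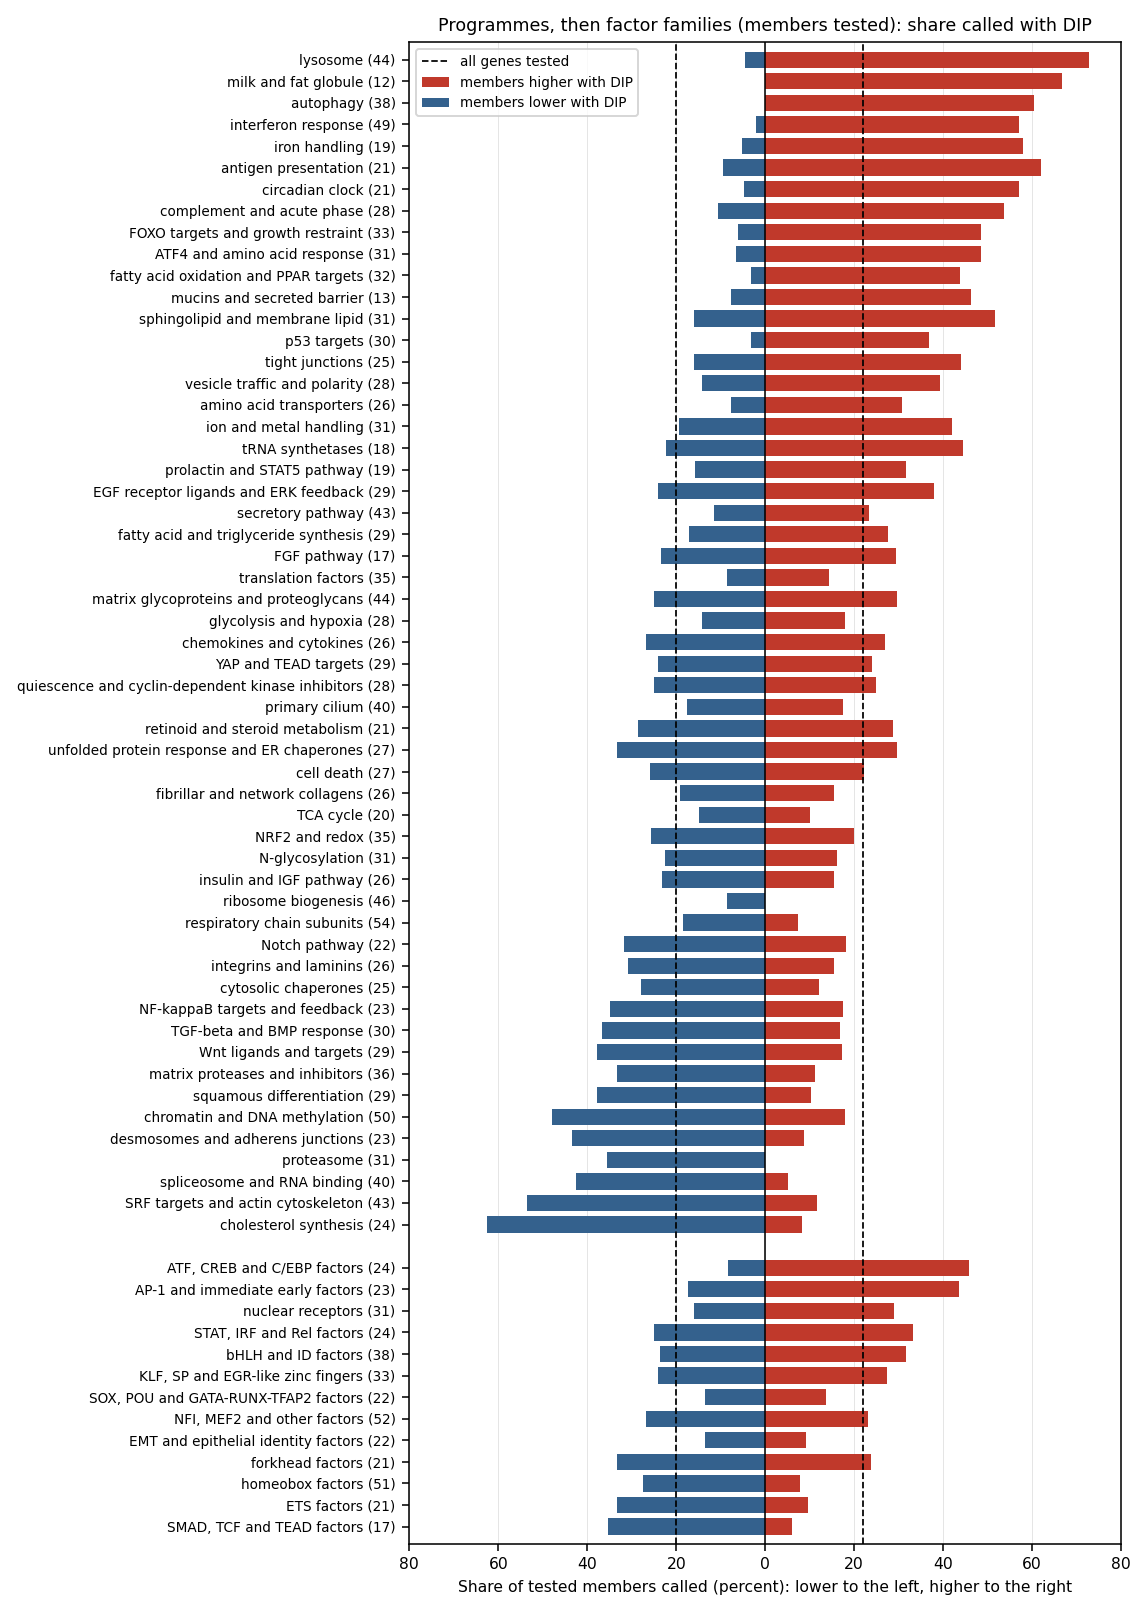
Share of tested members that rose (right) and fell (left) with DIP in 55 programmes and, below the gap, 13 factor families, with the number tested in brackets; dashed lines mark 22.0% and 20%, the shares over all genes. Lysosome and autophagy lie near the top and cholesterol synthesis, actin cytoskeleton and spliceosome genes at the bottom of the programmes.

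In the list of FOXO targets and growth restraint 16 of 33 rose, 2 fell and 15 did not pass (median log2 difference 1.23), and 12 rose and 1 fell of the 27 that are not on the set-aside lists. Btg2, an antiproliferative gene, rose from between 11.6 and 28.9 CPM to between 98.0 and 201 CPM (2.95 ± 0.20), Tob2 of the same family by 2.25 ± 0.14, and Arrdc3, an arrestin that dampens receptor signalling, by 2.14 ± 0.22. The regulatory subunit of PI3 kinase, Pik3r1, rose from a median of 45.4 to one of 277 CPM (2.61 ± 0.19, adjusted p = 5.43e-05). On the insulin and IGF list 4 rose and 6 fell of 26, 15.4% and 23.1%, against 22.0% and 20% of all genes. Within it Igfbp3 and Igfbp2, which bind insulin-like growth factors, fell by 3.23 ± 0.26 and 3.56 ± 0.71. Igfbp5, abundant at a median of 2235 CPM with DOX, had a log2 fold change of 1.02 ± 0.41 and an adjusted p of 0.382. Of 30 p53 targets 11 rose and 1 fell. Trp53inp1, a stress protein that also acts in autophagy, rose by 2.27 ± 0.34 and Perp, a membrane protein of desmosomes, by 1.76 ± 0.17, while Trp53 itself did not pass (-0.37 ± 0.14, adjusted p = 0.297). Quiescence genes were near the shares over all genes (7 higher and 7 lower of 28, 25% each). Cdkn2c and Rbl1 were lower by 2.18 ± 0.17 and 2.15 ± 0.13, and Cdkn1b stood at 0.15 ± 0.13. In the circadian clock 12 of 21 rose and 1 fell (median 0.66), including Nfil3, Rora and Per2 (1.37 ± 0.11).

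Stress-responsive genes rose in part. ATF4 is translated when amino acids are short or the endoplasmic reticulum is stressed, and of 31 genes of that response 15 rose and 2 fell (median log2 difference 0.71). Nupr1, a stress-induced chromatin protein, rose from between 17.3 and 42.5 CPM to between 200 and 828 CPM (3.73 ± 0.27, adjusted p = 1.22e-09). Ppp1r15a, which reverses the translation block, rose by 2.82 ± 0.23, Trib3, an inhibitor of AKT, by 2.45 ± 0.34, and Chac1, which degrades glutathione, by 1.59 ± 0.31. Of these 4, Chac1 alone had groups that overlapped. The amino acid transporter Slc7a5 did not pass (0.32 ± 0.23), although without DOX library 5 it did (0.49, adjusted p = 0.0216). In the left-out libraries Ppp1r15a was higher still, at 539 and 580 CPM against 59.4 to 259 CPM in the 8. DIP library 1 was the highest of the 8 for Nupr1, Ppp1r15a, Trib3 and Chac1. Of the 27 genes of the list with a promoter in the RefSeq table (GRCm38.p6, 250 bases before to 50 after the start), 9 held the amino acid response element written TGATGNAAN on either strand, 33.3% against 4.50% of all genes in the table. It was held by 5 of the 15 genes that rose and 4 of the 10 that did not pass, so it did not separate them. A match is a description and not a bound site. Among them were Atf3 and Nupr1, whose promoters are shown because they had the largest rises of the list. Both lie on the minus strand, are given 5′ to 3′ in the direction of the gene, and hold the element in reverse, in capitals, from 111 bases before the start. The Nupr1 window is chr7:126625421-126625720 and the Atf3 window chr1:191183284-191183583.
Nupr1: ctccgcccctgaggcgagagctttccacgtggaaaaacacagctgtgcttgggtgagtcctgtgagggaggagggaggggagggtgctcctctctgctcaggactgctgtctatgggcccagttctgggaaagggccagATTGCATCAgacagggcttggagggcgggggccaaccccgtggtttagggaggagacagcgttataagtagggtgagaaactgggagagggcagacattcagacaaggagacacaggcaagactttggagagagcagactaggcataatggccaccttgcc
Atf3: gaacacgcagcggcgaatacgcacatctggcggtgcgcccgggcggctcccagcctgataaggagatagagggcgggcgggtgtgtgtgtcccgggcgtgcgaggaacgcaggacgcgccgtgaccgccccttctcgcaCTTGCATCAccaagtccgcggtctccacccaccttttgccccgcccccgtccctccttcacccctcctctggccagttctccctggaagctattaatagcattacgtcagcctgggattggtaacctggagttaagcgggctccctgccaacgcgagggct

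The unfolded protein response moved both ways (8 rose and 9 fell of 27, median log2 difference -0.24). Wfs1, a calcium regulator of the endoplasmic reticulum, rose from between 5.97 and 10.7 CPM to between 36.5 and 52.9 CPM (2.48 ± 0.11, adjusted p = 7.03e-13). Crebrf (2.41 ± 0.29) and the co-chaperone Dnajb9 (1.75 ± 0.10) also rose, while the abundant oxidoreductase P4hb had a log2 fold change of -0.24 ± 0.12 and did not pass, although it did with limma voom (adjusted p = 0.0244), with one spread over 3 groups (0.00957) and without DIP library 7 or 9 (0.00733 and 0.0113). Of 18 tRNA synthetases 8 rose (5 with limma voom) and 4 fell. The 3 largest changes on that list were falls, those of Kars, Hars and Vars (-0.90 ± 0.09, -0.87 ± 0.14 and -0.63 ± 0.11). Secretory pathway genes (10 and 5 of 43, median 0.02) and N-glycosylation genes (5 and 7 of 31, median -0.02) showed little shift as lists. Within them Mgat4a, a branching glycosyltransferase, rose by 1.77 ± 0.25, Alg13 fell by 1.39 ± 0.18, and Ssr1, of the translocon, fell by 0.85 ± 0.10.

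Interferon-stimulated genes and genes of antigen presentation were higher with DIP, with wide spread among libraries. Of 49 interferon genes 28 rose and 1 fell (median log2 difference 1.10). Usp18, which removes ISG15 from proteins and damps receptor signalling, lay between 0.790 and 13.6 CPM (median 3.71) with DOX and between 10.1 and 44.9 CPM (median 36.7) with DIP (2.63 ± 0.49, adjusted p = 6.86e-05). Ifi44 rose by 2.40 ± 0.63, the antiviral synthetase genes Oas1g by 2.15 ± 0.44 and Oas1a by 2.04 ± 0.41, and the ubiquitin-like modifier Isg15 also rose (adjusted p = 0.00231). The groups of 8 and 10 overlapped for all 5 of these genes, and both left-out libraries lay above all DOX libraries for each. The mean log2 CPM of the list ran from 1.15 to 3.80 over the DOX libraries and from 2.92 to 4.23 over the 8, where libraries 5, 3 and 4 were lowest. On this mean the left-out libraries lay within the DOX range, at 3.62 and 3.43. Stat2, the signal transducer of type I interferon, did not overlap (7.85 to 25.4 CPM against 31.3 to 72.9 CPM, 1.61 ± 0.25). In antigen presentation 13 of 21 rose and 2 fell, including the MHC class I genes H2-D1 (1.90 ± 0.21), H2-T23 (1.69 ± 0.26) and H2-Q7 (1.60 ± 0.22), whose reads may be shared between similar copies, while the proteasome activator Psme2 stayed at -0.11 ± 0.12.

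Of the 36 interferon genes with a promoter in the table, 21 held an interferon element, searched on either strand as GAAA, any 2 bases and GAAA again, 58.3% against 3.99% of all genes. It was held by 12 of the 20 genes that rose and by 9 of the 15 that did not pass, so it did not separate them. The sterol element TCACNCCAC was held by 1 of 17 genes of cholesterol synthesis (Hmgcs1), 5.88% against 1.44%. The promoters of Isg15 and Oas1a are shown for the arrangement of the motif, with overlapping copies in capitals (3 in Isg15, from 78 bases before the start; 2 in Oas1a, from 20 bases before it). Both are of the minus strand, in GRCm38.p6: Isg15 at chr4:156200769-156201068 and Oas1a at chr5:120907476-120907775.
Isg15: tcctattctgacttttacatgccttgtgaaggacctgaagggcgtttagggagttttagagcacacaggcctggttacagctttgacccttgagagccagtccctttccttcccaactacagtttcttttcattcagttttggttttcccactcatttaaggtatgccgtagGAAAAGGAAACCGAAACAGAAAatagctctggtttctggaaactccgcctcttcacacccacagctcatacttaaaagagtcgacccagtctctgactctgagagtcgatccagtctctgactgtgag
Oas1a: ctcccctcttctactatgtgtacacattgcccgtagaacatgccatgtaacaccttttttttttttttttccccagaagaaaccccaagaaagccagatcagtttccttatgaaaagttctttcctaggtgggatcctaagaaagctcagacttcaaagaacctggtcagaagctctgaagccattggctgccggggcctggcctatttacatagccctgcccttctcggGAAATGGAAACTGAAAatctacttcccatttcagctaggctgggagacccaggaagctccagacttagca

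Secreted defence proteins and transport genes formed another group of rises. In complement and acute phase 15 of 28 rose and 3 fell (median log2 difference 1.35). Lbp, which binds lipopolysaccharide, went from between 4.23 and 31.6 CPM to between 90.6 and 788 CPM (3.85 ± 0.48, adjusted p = 0.000191), with DIP library 2 the highest. Cp, the copper-bearing ferroxidase ceruloplasmin, rose by 2.38 ± 0.32 and complement C3 also rose, reaching 599.5 CPM in DIP library 2, while the protease inhibitor Slpi did not pass (-0.47 ± 0.34), although without DIP library 2 it did (-0.91, adjusted p = 0.00679). Of 19 iron genes 11 rose and 1 fell: the metalloreductase Steap4 by 2.92 ± 0.33 and the ferritin heavy chain Fth1 by 1.14 ± 0.14 (706 to 997 CPM against 1380 to 3494 CPM), neither of which passed with limma voom (adjusted p = 0.0749 and 0.0984). In ion and metal handling 13 of 31 rose and 6 fell, with the sodium pump subunit Atp1b1 up by 2.84 ± 0.25, the phosphate transporter Slc20a1 up by 1.26 ± 0.16, and the potassium channel Kcnn4 down by 1.49 ± 0.21. Of 26 amino acid transporters 8 rose and 2 fell, among them Slc38a7 (1.34 ± 0.15) and Slc3a2, the heavy chain of several exchangers (1.22 ± 0.17). Milk and fat globule genes had 8 of 12 higher and 0 lower, including Wfdc18 (2.37 ± 0.44, adjusted p = 0.197 with limma voom) and Xdh, a coat protein of the fat globule (2.12 ± 0.48), and in the prolactin pathway Jak2 rose by 1.38 ± 0.20 and Socs3, its feedback inhibitor, fell by 1.39 ± 0.16.

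Falls outnumbered rises on several signalling lists, with 7 to 11 falls a list, while many members did not pass. In the TGF-beta and BMP response 11 of 30 fell and 5 rose (median log2 difference -0.29). Id3 and Id1, described above, were among the falls. Of 29 Wnt genes 11 fell and 5 rose, with the antagonists Nkd2 and Sfrp1 lower by 1.67 ± 0.35 and 1.52 ± 0.21. Of 22 Notch genes 7 fell and 4 rose: the receptor glycosyltransferase Lfng fell by 1.96 ± 0.16, from a median of 50.6 to 13.6 CPM, and the receptor Notch1 by 1.13 ± 0.20. The NF-kappaB list had 8 lower and 4 higher of 23, with Bcl3, Rel and Nfkb1 lower by 1.78 ± 0.40, 0.89 ± 0.20 and 0.76 ± 0.10. EGF receptor and ERK feedback genes (11 rose and 7 fell of 29) and FGF genes (5 and 4 of 17) went both ways, as Ereg and Fgf1, both ligands, rose by 1.62 ± 0.44 and 1.86 ± 0.18 and Fgf13 fell by 2.44 ± 0.27. With limma voom neither Ereg nor Fgf1 passed (adjusted p = 0.0511 and 0.315).

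Of 43 SRF targets and actin genes 23 fell and 5 rose (median log2 difference -0.41). Fhl2, a LIM protein of focal adhesions, fell from between 27.5 and 54.6 CPM to between 4.40 and 7.14 CPM (-2.75 ± 0.15, adjusted p = 1.78e-12) and the actin binder Tagln2 by 1.62 ± 0.09, whereas Gsn (gelsolin, which severs filaments) rose by 1.68 ± 0.23. In desmosomes and adherens junctions 10 of 23 fell and 2 rose, Pkp1 changing by -1.42 ± 0.14, and in squamous differentiation 11 of 29 fell and 3 rose, with Sfn (-2.33 ± 0.24), Krt16 (-1.95 ± 0.19) and Lypd3 (-1.82 ± 0.25). The basal keratins Krt5 and Krt14 went from medians of 2744 and 1877 CPM to 611 and 537 CPM (-2.41 ± 0.25 and -1.85 ± 0.18). Of 25 tight junction genes 11 rose and 4 fell, Marveld3 rising by 1.36 ± 0.12 and Cldn4 by 1.32 ± 0.49, which did not pass in both fits without DIP library 1 or 2 or without a filter.

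Matrix genes split member by member. Among matrix glycoproteins and proteoglycans 13 of 44 rose (7 with limma voom) and 11 fell. These were 29.5% and 25%, against 22.0% and 20% of all genes. Ogn, Ccn2 and Spp1 lay at one end and Tnc and Npnt at the other. Fn1 (fibronectin, a median of 1762 CPM with DOX) did not pass (-0.08 ± 0.19, adjusted p = 0.386). Of 36 matrix proteases and inhibitors 12 fell and 4 rose, including Adamts5, which cleaves proteoglycans (-1.95 ± 0.19), and Timp1 (-1.94 ± 0.22). Of 26 collagens 5 fell and 4 rose, 19.2% and 15.4%, no more than among all genes. Col8a1 changed by -2.69 ± 0.38, Col3a1 by -2.64 ± 0.95 and Col6a3 by 2.56 ± 0.68. Col6a3 did not pass with limma voom (adjusted p = 0.635), without DIP library 2, 7 or 9 (adjusted p = 0.051, 0.0866 and 0.0778) or without DOX library 1, 3, 5, 7 or 9 (0.0516 to 0.0535), and without a filter neither Col6a3 nor Col3a1 passed in both fits. Integrins also diverged, with Itgb3 lower by 1.96 ± 0.31 and Itgb8 higher by 1.95 ± 0.23. Fibroblast markers moved in part beside these lists. Of 7 tested 4 rose and 0 fell, Dcn from a median of 2.98 to 50.7 CPM. Medians of Col1a1 and Col1a2 went the other way, from 27.8 to 11.2 and from 4.92 to 1.94 CPM. For each, 5 of the 8 DIP libraries lay below all DOX libraries, though for Col1a1 2 lay above. The summed level of the 10 markers went from between 39.8 and 105 CPM to between 67.6 and 291 CPM. Thy1, Dpt, Pi16 and Fap were under 1 CPM in every library.

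Of 40 spliceosome and RNA binding genes 17 fell, 6 of them by 2-fold or more, and 2 rose (median log2 difference -0.61). Among the falls were Hnrnpd (-1.53 ± 0.16), Hnrnpa1 (from 516 to 839 CPM to between 210 and 343 CPM, -1.44 ± 0.11) and Snrpd1 (-1.42 ± 0.17). Of 31 proteasome subunits 11 fell and 0 rose (median -0.43), none by 2-fold or more, with Psma1 at -0.73 ± 0.11. Of 50 genes of chromatin and DNA methylation 24 fell, 11 of them by 2-fold or more, and 9 rose. The histone H3 lysine 9 methyltransferases Suv39h1 and Suv39h2 fell by 2.83 ± 0.13 and 2.68 ± 0.19 and the maintenance DNA methyltransferase Dnmt1 by 2.22 ± 0.13, from a median of 334 to 71.8 CPM. In ribosome biogenesis 4 of 46 fell and 0 rose, with a median of -0.32: Noc4l fell by 1.19 ± 0.18 and Npm1 by 0.93 ± 0.20, and Ncl did not pass (-0.68 ± 0.27, adjusted p = 0.0983), although it did without DIP library 1 (-0.91, adjusted p = 0.0374), without DOX library 5 (-0.78, adjusted p = 0.0326) and with one spread over 3 groups (adjusted p = 0.0467). In energy metabolism 4 rose and 10 fell of 54 respiratory chain subunits (median -0.16), with Ndufa4 and Uqcrc1 lower by 0.75 ± 0.11 and 0.72 ± 0.10, 2 and 3 of 20 TCA cycle genes, and 5 and 4 of 28 glycolysis and hypoxia genes, where Vegfa rose by 1.62 ± 0.22 and Eno1 stayed at -0.10 ± 0.12. Falls made up 8.7% of ribosome biogenesis, 18.5% of respiratory chain, 15% of TCA cycle and 14.3% of glycolysis and hypoxia genes. All were under the 20% of all genes, and the shares that rose were under the 22.0% of all genes. For ribosome biogenesis the low share is bound to the rule, since the left-out libraries did not follow the 8. Their mean log2 CPM was 7.19 and 7.26, with DOX at most at 6.85. The median log2 difference was -0.04 over all 10 DIP libraries, and 36 of the 42 members that did not pass were lower in the 8.

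Taking the mean log2 CPM over each list without its set-aside members, all 8 DIP libraries lay beyond all 10 DOX libraries on 16 of the 68 programmes and families, 12 of them higher and 4 lower. With all members it was 18, the 2 more being fatty acid oxidation and ion handling, where the groups overlapped without the set-aside members. Since the libraries were chosen by measured values, this separation is a description. On the 4 lower lists (TGF-beta and BMP response, chromatin, homeobox factors, and SMAD, TCF and TEAD factors) the left-out libraries also lay below all DOX libraries. On the 12 higher lists they went along on 4: autophagy, circadian clock, p53 targets, and ATF, CREB and C/EBP factors. They lay within the DOX range for lysosome, acute phase, iron, and milk genes, and under every DOX library for FOXO targets, sphingolipids, mucins, and vesicle traffic. For lysosome the DOX libraries ran from 4.93 to 5.59, the 8 DIP libraries from 5.83 to 6.37, and the left-out ones lay at 5.35 and 5.38; for autophagy the ranges were 5.03 to 5.39 and 5.76 to 6.12, with 5.76 and 5.77 in the left-out ones.

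**Figure D4:**
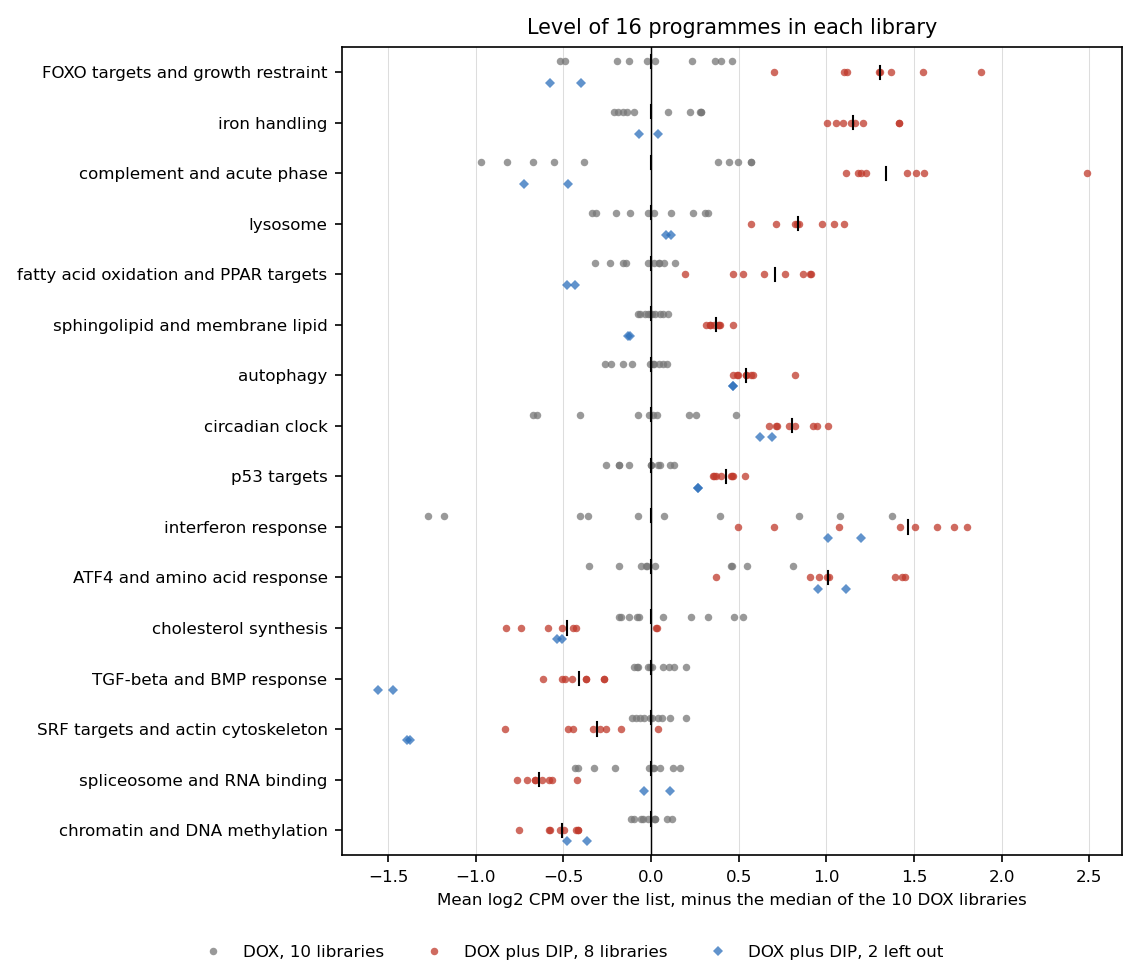
Mean log2 CPM over 16 lists in each library, set-aside members included, as the difference from the median of the 10 DOX libraries; points are libraries and black ticks medians. The 8 DIP libraries (circles) lie above DOX on the first 9 lists and below it on TGF-beta and BMP response and on chromatin and DNA methylation. The left-out libraries (diamonds) join them on both of the lower lists and on autophagy, circadian clock and p53 targets, but not on iron handling or lysosome.

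The 8 libraries were not uniform. DIP library 1 was the lowest of the 8 on 32 of the 68 lists and library 2 the highest on 25. On collagens library 1 had a mean log2 CPM of 2.83 against a median of 4.85 over the 8, with the left-out libraries lower still. Library 1 was also the lowest of the 8 for Ccn2 (2013 CPM) and Mgp (575 CPM), both still far above every DOX library. Across 12943 well-expressed genes (mean log2 CPM from 2 upward), the median SD of log2 CPM was 0.249 within the 8 DIP and 0.265 within the 10 DOX libraries, and 42.2% of these genes varied more within the 8. Among the DOX libraries, library 6 was the highest on 26 lists and library 10 the lowest on 22.

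Some libraries of a group were much closer to each other than the rest. The SD of the log2 CPM difference over well-expressed genes was 0.159 and 0.171 for DOX libraries 7 and 9 and 8 and 10, and 0.205, 0.178 and 0.168 for DIP libraries 3 and 5, 4 and 6, and 7 and 9. Over the other 85 pairs of a group it ran from 0.273 to 1.39 (median 0.551). Among these, the left-out DIP libraries 8 and 10 lay 0.33 from each other and at least 1.07 from every other DIP library. They were over the limit of 0.25 for a close pair, so the test of 10 against 10 counted them as 2 libraries throughout. The counts of the 5 close pairs still differed by more than sampling noise (chi-square per degree of freedom of 38 to 109), and no label says how these libraries relate. The fits above treat every library as independent, which gives too small an SE and p where libraries share a culture. With each close pair summed into 1 library, an alternative chosen after seeing the data, 7184 genes passed in both fits in place of 10020, 3641 higher and 3543 lower. Of the genes named here, Cpt1a (adjusted p = 0.17), Col6a3 (0.114), Fgf1 (0.106), Fth1 (0.0717), Snrpd1 (0.142) and Wfdc18 (0.0883) then did not pass, nor did Cldn4, in the fit of the 8. List counts that moved by more than 1.5 times under it included fatty acid oxidation (14 to 8 higher), sphingolipid and membrane lipid (16 to 10 higher), matrix glycoproteins (13 to 8 higher), vesicle traffic (11 to 5 higher), bHLH and ID factors (12 to 7 higher), nuclear receptors (9 to 5 higher), tRNA synthetases (8 to 4 higher), amino acid transporters (8 to 5 higher), FGF genes (5 to 1 higher), spliceosome genes (17 to 9 lower), proteasome subunits (11 to 4 lower), respiratory chain subunits (10 to 4 lower) and NF-kappaB genes (8 to 5 lower).

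The receptors of the presumed hormones were measured too. Nr3c1, the glucocorticoid receptor, did not pass (31.6 to 85.7 CPM against 43.8 to 60.7 CPM, -0.27 ± 0.15, adjusted p = 0.0699), although without DOX library 5 it did (-0.35, adjusted p = 0.00615). Insr, the insulin receptor, rose from a median of 41.2 to 77.3 CPM (0.93 ± 0.16, adjusted p = 3.64e-05). Prlr, the prolactin receptor, was near its floor in both groups, with medians of 0.275 and 0.246 CPM. As a check of the label, the epithelial genes Epcam (medians of 162 and 217 CPM) and Cdh1 (344 and 236 CPM) were well expressed in both groups, whereas Foxa1 and Cldn7 stayed under 1 CPM. Of 19 mammary epithelial markers tested, 4 rose and 5 fell. All 8 DIP libraries lay below all DOX libraries for Cdh1, Krt5, Krt14 and Oxtr. Medians of Krt18, Krt19, Cldn3 and Cldn4 went the other way, with groups that overlapped. They went from 15.5, 0.456, 52.4 and 17.8 CPM to 26.8, 2.79, 79.5 and 71.6 CPM. The summed level of the 20 epithelial markers ran from 3871 to 8445 CPM with DOX and from 1800 to 2555 CPM with DIP. Krt5 and Krt14, with the highest levels of the 20, weigh most in this sum. Of 10 leukocyte markers 8 were under 1 CPM in every library, among them Ptprc and Tyrobp, the second at 0 in all 18. Of the others, Csf1r lay between 6.96 and 9.92 CPM with DOX and between 7.66 and 10.4 CPM with DIP, and Cd68 between 1.68 and 3.20 CPM with DOX and between 2.82 and 8.33 CPM with DIP. The summed level of the list ran from 9.08 to 12.8 CPM with DOX and from 10.7 to 18.5 CPM with DIP. Of 9 endothelial markers 7 were under 1 CPM in every library, among them Cdh5 and Kdr, while Pecam1 lay between 3.40 and 5.48 CPM with DOX and between 0.237 and 1.62 CPM with DIP. Vwf went the other way, from a median of 0.135 to one of 0.411 CPM, with 7 of the 8 DIP libraries above all DOX libraries. Of the 3 endothelial markers tested, 1 rose and 2 fell. Their summed level ran from 3.97 to 6.31 CPM with DOX and from 0.880 to 3.12 CPM with DIP. The part that the moving adipocyte, fibroblast, leukocyte and endothelial markers have in the lists beside them was not tested.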

How the data were processed

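Total RNA depleted of ribosomal RNA was made into NEBNext Ultra II libraries, as the labels' protocols state. The submitters' processing notes name fastp 0.23.2, featureCounts 2.0.1 and GRCm39; neither an aligner nor a strand setting is named in the sources used here. The deposited files hold raw read counts for 56748 gene identifiers, which the authors did not scale. Symbols came from the gene name table supplied with the reference, which gave one to 52073 identifiers, and promoters from RefSeq (GRCm38.p6). Of 2347 names on the lists, 15 found no identifier.

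edgeR 4.0.16 (R 4.3.3; TMM, filterByExpr, robust quasi-likelihood test, Benjamini-Hochberg adjustment over all genes) was fitted to 10 DIP against 10 DOX libraries, for p, and to 8 against 10, for log2 fold changes and SE. The p-values of the second fit depend on the choice of libraries and are not given. CPM used TMM factors. Both fits were run on simulated counts of independent libraries that shared the same change with DIP. The simulation held no divergent or close libraries and no choice by a measured value, so it does not bear on these. The libraries, lists and factors were chosen with earlier results of these data known. Named genes, leaving out the set-aside lists, histones and predicted models, were the 12 largest rises and falls among called genes without overlap, 10 factors each way and 3 called members per programme (all averaging 2 or more in log2 CPM), the 5 label markers, the hormone receptors, and the highest uncalled member of each list. Others with values (Cxcl17, Pigr, Hoxc10, Hoxc8, Isg15, Oas1a, Stat2, Trib3, Chac1, Tfeb, Srebf2, Krt5, Krt14, Krt18, Krt19, Cldn3, Fabp4, Dcn, Epcam, Cdh1, Csf1r, Cd68, Pecam1 and Vwf) were chosen after their values were seen. Lists are described by counts and medians, with no test. Alternatives were DESeq2 size factors, no filter, DESeq2 1.42.0, limma voom 3.58.1, one spread over 3 groups and leaving out each library. After seeing the data, 2 were added: close libraries of a group (SD of the log2 CPM difference under 0.25, each the nearest of the other) summed, and list means without set-aside members.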

Additional observations from a re-analysis of the deposited data

Results flagged for a closer look

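Within a group, the highest or lowest library stood unusually far from the rest (Dixon's test at the 95% level) in 32 of 364 gene and group pairs examined. Chance alone flags about 1 in 20.

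Most concerned DIP libraries 1 and 2. Library 2 was the highest of the 8 for Kcnj15 (100.8 CPM, next 52.72), Id1 (36.65), Atg12 (228.9), Mgat4a (201.6), Lbp (788.5, next 212), C3 (599.5, next 233.7), Steap4 (865.1, next 303.1), Fth1 (3494), Degs1 (401.5) and Socs3 (38.72 CPM). It was the lowest for Hey1 (0.7448), Slc7a5 (158.9), Slc3a2 (511.5) and Chac1 (18.36 CPM). Library 1 was the lowest for Gli1 (0.587 CPM, next 2.169), Acot1 (100.7), Notch1 (26.43, next 63.32), Dnmt1 (41.02), Tfeb (13.21), Pecam1 (0.237, next 0.6634) and Tsc22d3 (251 CPM), and the highest for Wfdc18 (738.9 CPM).

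Among the DOX libraries, library 5 was the lowest for Ulbp1 (4.301 CPM, next 13.01), Rad54b (17.79), Brip1 (6.516, next 17.86), Rel (3.533), Hnrnpa1 (515.5), Suv39h2 (10.3), Chka (40.47) and Mki67 (92.33 CPM, next 206.4). Library 1 was the lowest for Pif1 (17.35 CPM) and the highest for Dnajb9 (13.2 CPM).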

How the results depend on the processing

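Over 5 other fits the number of called genes ran from 9792 (limma voom) to 10978 (no filter), with 50.1% to 53.8% of the calls higher. Leaving out each library in turn gave 9412 to 10114 called genes, 4897 to 5311 higher and 4444 to 4816 lower, with 2279 to 2598 at least 2-fold higher and 2191 to 2306 at least 2-fold lower. Of 211 called genes examined, 18 lost the call in at least 1 of these fits, 21 with close libraries summed and 5 without 1 library, and 0 changed direction. With close libraries summed, chosen after seeing the data, 7184 genes were called. Among list counts of at least 5 in either fit, 30 then moved by more than 1.5 times, all to fewer calls. In the 5 other fits counts of that size moved by that much in 10 cases, for which the cause was not tested: fatty acid oxidation (14 to 9 higher), tRNA synthetases (8 to 5 higher), matrix glycoproteins (13 to 7 higher), FGF (5 to 3 higher) and collagens (5 to 8 lower) with limma voom, STAT, IRF and Rel factors (8 to 5 higher) and squamous genes (3 to 5 higher) with no filter, N-glycosylation (5 to 8 higher) with DESeq2 and with all groups, and translation factors (3 to 6 lower) with all groups. List counts in the fits without 1 library are not part of this. No paired analysis was possible because the labels give no replicate numbers. Genes near a few hundredths of a CPM are limited by depth.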
